A study of Mus musculus with 12 samples.

Results

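Transverse aortic constriction (TAC) narrows the aortic arch with a suture, so that the left ventricle pumps against a raised load. The hearts described here are those of Cd163 knockout (KO) mice after TAC and after sham surgery. They were picked by the genotype and surgery in the labels, and make up 6 of the 12 libraries of the series, with 3 KO TAC libraries (replicates 1, 3 and 5) and 3 KO sham libraries (replicates 1, 2 and 3). The other 6 libraries are wild-type (WT) C57BL/6J hearts, 3 after TAC and 3 after sham, and serve here only to show where the KO response differed. The labels name the study's question, whether macrophage CD163 protects the pressure-overloaded heart through interleukin-10.

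KO TAC and KO sham mice shared the Cd163-/- genotype on a C57BL/6J background, male sex, an age of 8 weeks at surgery and isoflurane anaesthesia. The aorta of TAC mice was tied over a 27-gauge needle that was then withdrawn, and sham mice had the same operation with no ligature. RNA of the heart was selected with oligo(dT) beads and read as 150 bp pairs. The labels and files used here state neither the deleted part of Cd163 nor the time from surgery to collection. The animal behind each library is not named, so a p-value weighs a difference against the spread of these samples alone, which may be technical.

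CD163 is the scavenger receptor by which tissue macrophages take up haemoglobin bound to haptoglobin, and resident cardiac macrophages carry it. The healthy heart draws most of its energy from fatty acids, which are oxidised in the mitochondrial matrix and feed the citric acid cycle and the respiratory chain. Hearts under chronic pressure load are known for lower expression of these oxidative genes, for a return of fetal muscle and natriuretic peptide genes, and for matrix deposition by fibroblasts.

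The KO TAC libraries held 16913259, 14150109 and 15025165 counts, and the KO sham libraries 15804176, 22602225 and 18871817. Values below are CPM, edgeR's measure of counts relative to library size after TMM scaling, given in the order of replicates 1, 3 and 5 for KO TAC and 1, 2 and 3 for KO sham, so the first of the 3 sham values is always that of KO sham replicate 1. Cardiomyocyte genes marked all 6 libraries as heart, and Myh6, the main ventricular myosin heavy chain of the adult mouse, had 10204, 11317 and 11049.7 CPM in KO TAC hearts, against 8350.2, 18171 and 16486 CPM in KO sham hearts. Cd163 (ENSMUSG00000008845) was still counted in the knockout, with 59, 47 and 53 raw counts in KO TAC and 46, 112 and 96 in KO sham hearts, against 255 to 592 in the WT libraries. Its level was 3.98, 3.60 and 3.40 CPM in KO TAC hearts, against 3.07, 4.55 and 4.44 CPM in KO sham hearts, so the groups overlapped. Its log2 fold change was −0.14 ± 0.23 with all 6 libraries (edgeR adjusted p = 0.699) and −0.28 ± 0.19 without KO sham replicate 1 (adjusted p = 0.214). Il10 (ENSMUSG00000016529), the gene of interleukin-10, had 0, 0 and 3 counts in KO TAC and 1, 1 and 0 in KO sham hearts, at or under a floor of 3 counts over the group, so no difference was detectable at this depth.

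KO sham replicate 1 stood with the KO TAC libraries and not with the other KO sham libraries. Over the 14731 genes tested with all 6 libraries, its rank correlation was 0.984 to 0.989 with the KO TAC libraries, 0.919 with KO sham replicate 2 and 0.929 with replicate 3, while replicates 2 and 3 correlated at 0.994. Transcripts of the mitochondrial genome took 51.3, 48.4 and 44.0% of the counts in KO TAC hearts, against 51.0, 31.6 and 30.5% in KO sham hearts. Values are therefore shown for all 6 libraries, and tests are given without this one and, for the main genes, with it, and its removal was decided with its values known. A change in a bulk heart sample cannot tell fewer cells of a type apart from less RNA per cell.

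With all 6 libraries, no gene was called between KO TAC and KO sham hearts. The edgeR quasi-likelihood test with Benjamini-Hochberg adjustment at 0.05 called 0 of 14731 genes (0%), while 3211 genes (21.8%) had an unadjusted p under 0.05. DESeq2 called 192 genes on the same counts, 76 higher and 116 lower, and limma-voom with sample weights called 9339, 4622 higher and 4717 lower. Without KO sham replicate 1, edgeR called 9064 of 15300 genes (59.2%), with 4431 higher (29.0%) and 4633 lower (30.3%) in KO TAC hearts. Of these, 3825 differed by 2-fold or more, 2006 higher and 1819 lower. The median log2 fold change over all genes tested was −0.01 with all 6 libraries and 0.01 without the library, and the median size of the called changes was 0.88. On library totals without TMM scaling, that median was −0.24 without the library and the 8748 calls were 2812 higher (32.1%) and 5936 lower, where the TMM calls were 48.9% higher.

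In what follows, "rose", "fell" and "called" refer to the edgeR test without KO sham replicate 1, and no gene or list member was called with all 6 libraries. A count of members that rose or fell is to be read against the 29.0% of genes higher and 30.3% lower in that test. A count of members in which all TAC hearts lay above or below all sham hearts is to be read against 11.7% of all genes above and 10.8% below.

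KO sham replicate 1 was left out because it resembled the KO TAC libraries, so its place among the genes called without it describes that likeness and is no separate support for it. On the log2 CPM scale, with the mean of KO sham replicates 2 and 3 set to 0 and the KO TAC mean to 1, it lay at a median of 0.95 for the genes that rose (interquartile range 0.768 to 1.156) and at 0.996 for those that fell (0.80 to 1.179). It was within the range of the KO TAC libraries or beyond it for 6308 of the 9064 called genes (69.6%), and nearer to the KO TAC mean for 8369 (92.3%). It was within the range of KO sham replicates 2 and 3, or beyond it on the sham side, for 177 genes (1.95%).

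**Figure D1:**
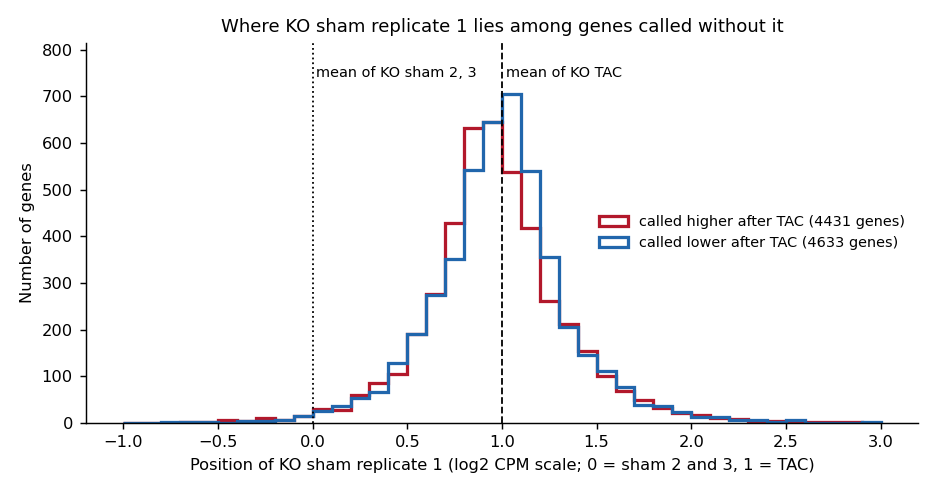
Position of KO sham replicate 1 for the 4431 genes that rose and the 4633 that fell when it was left out, with position on the horizontal axis (0, the mean of KO sham replicates 2 and 3; 1, the KO TAC mean) and number of genes on the vertical axis. Both distributions peak close to 1, and 8 genes lie outside the axis.

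The 3 KO TAC libraries lay apart from all 3 KO sham libraries, replicate 1 included, for 3309 of 14731 genes (22.5%), above them for 1719 (11.7%) and below them for 1590 (10.8%). Of the 14731, 2614 (17.7%) were also called without KO sham replicate 1, with 1416 above (9.61%) and 1198 below (8.13%). The genes of largest change among these are described next, since their direction did not rest on leaving a library out.

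Cxcl13 and Cd207 led the genes above all sham hearts. Cxcl13 (ENSMUSG00000023078), the chemokine that draws B cells, had 2.43, 1.99 and 1.16 CPM in KO TAC hearts, against 0.201, 0 and 0.0462 CPM in KO sham hearts, from raw counts of 36, 26 and 18 in KO TAC against 3, 0 and 1 in KO sham. Cd207 (ENSMUSG00000034783), the langerin of some dendritic cells, had 2.63, 1.69 and 1.73 CPM in KO TAC hearts, against 0, 0.163 and 0.0924 CPM in KO sham hearts, from 39, 22 and 27 counts in KO TAC against 0, 4 and 2 in KO sham. All KO TAC hearts exceeded all KO sham hearts in both genes, at low levels. The log2 fold change of Cxcl13 was 4.63 ± 0.78 with all 6 libraries (edgeR adjusted p = 0.228), and it was called without replicate 1 (adjusted p = 8.13e-05), where no fold is given because the sham libraries left held 1 count. The log2 fold change of Cd207 was 4.30 ± 0.61 with all 6 libraries (edgeR adjusted p = 0.228) and 3.91 ± 0.47 without replicate 1 (adjusted p = 6.72e-05). Vsig4, a complement receptor of resident macrophages, had 5.19, 2.53 and 2.89 CPM in KO TAC hearts, against 1.74, 0.366 and 0.416 CPM in KO sham hearts. KO sham replicate 1 was the highest sham heart in Cxcl13 and Vsig4, and the lowest in Cd207.

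Hapln1 and Sfrp5 were next. Hapln1 (ENSMUSG00000021613), a link protein that ties hyaluronan to proteoglycans, had 5.53, 3.68 and 1.99 CPM in KO TAC hearts, against 0.735, 0.609 and 0.277 CPM in KO sham hearts, and its log2 fold change was 2.79 ± 0.51 with all 6 libraries (edgeR adjusted p = 0.228) and 3.04 ± 0.52 without replicate 1 (adjusted p = 0.000956). Sfrp5 (ENSMUSG00000018822), a secreted inhibitor of Wnt ligands, had 12.3, 3.29 and 8.03 CPM in KO TAC hearts, against 1.54, 1.58 and 0.740 CPM in KO sham hearts. It changed by 2.62 ± 0.53 with all 6 libraries (edgeR adjusted p = 0.228) and by 2.75 ± 0.69 without replicate 1 (adjusted p = 0.0199). KO sham replicate 1 matched the other sham hearts in Sfrp5 and was a little above them in Hapln1.

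Wif1, another secreted Wnt inhibitor, had 10.7, 7.66 and 6.74 CPM in KO TAC hearts, against 3.54, 3.58 and 3.004 CPM in KO sham hearts, and Myoc, the extracellular glycoprotein myocilin, 15.2, 10.3 and 10.3 in KO TAC, against 3.41, 3.13 and 3.56 in KO sham. Gdf10, a bone morphogenetic protein relative made by fibroblasts, had 4.11, 3.91 and 3.15 CPM in KO TAC hearts, against 1.20, 0.813 and 1.48 CPM in KO sham hearts. In these 3 genes replicate 1 lay within the range of the other sham hearts, and every TAC heart was higher. The log2 fold changes without replicate 1 were 1.35 ± 0.23, 1.85 ± 0.21 and 1.72 ± 0.30 (edgeR adjusted p = 0.000550, 4.70e-05 and 0.000704). With all 6 libraries the values were 1.31 ± 0.23, 1.82 ± 0.22 and 1.68 ± 0.30, and the edgeR adjusted p was 0.228 for each. Myoc and Gdf10 were chosen after their values were seen, as genes in which replicate 1 stood with the sham hearts.

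The remaining genes of largest rise with no overlap were Per2 and mt-Ta, taken up below with their groups, and Lvrn, Pvalb, Alox8, Chodl and Cib3. Lvrn, a membrane aminopeptidase, had 10.2, 12.3 and 5.01 CPM in KO TAC hearts, against 3.74, 0.813 and 0.555 CPM in KO sham hearts. Pvalb, a calcium buffer of fast muscle and some neurons, had 2.63, 0.996 and 0.899 CPM in KO TAC hearts, against 0.267, 0.487 and 0.0924 CPM in KO sham hearts. Alox8, an arachidonate lipoxygenase, had 3.10, 0.690 and 1.48 CPM in KO TAC hearts, against 0.334, 0.609 and 0.231 CPM in KO sham hearts. Replicate 1 lay among the other sham hearts in Pvalb and Alox8 and above them in Lvrn. Chodl and Cib3 each stood at or below 1.82 CPM in every library.

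Among genes below all sham hearts, Srp54b (ENSMUSG00000112449) had the most negative log2 fold change with all 6 libraries. It encodes a copy of the signal recognition particle subunit SRP54, and its near-identical copies can share reads, so its level is uncertain. Its values were 0.742, 0.613 and 0.128 CPM in KO TAC hearts, against 5.15, 4.51 and 5.36 CPM in KO sham hearts, and the 3 sham hearts agreed. The log2 fold change was −3.34 ± 0.48 with all 6 libraries (edgeR adjusted p = 0.228) and −3.31 ± 0.39 without replicate 1 (adjusted p = 5.97e-05).

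In other genes of this set replicate 1 was nearer to the TAC hearts. Vcl (ENSMUSG00000021823), the vinculin that couples actin to the cell membrane at costameres and intercalated discs, had 7.76, 6.51 and 10.1 CPM in KO TAC hearts, against 10.8, 56.5 and 52.8 CPM in KO sham hearts. Timm23 (ENSMUSG00000013701), the channel of the inner mitochondrial membrane import machinery, had 10.1, 9.43 and 9.57 CPM in KO TAC hearts, against 10.7, 70.9 and 85.2 CPM in KO sham hearts. Taco1, an activator of cytochrome oxidase subunit 1 translation, had 2.36, 2.68 and 1.93 CPM in KO TAC hearts, against 2.74, 27.6 and 21.0 CPM in KO sham hearts. In each of the 3 genes KO sham replicates 2 and 3 stood far above the other 4 libraries, and replicate 1 was lowest of the sham hearts.

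Slc41a3, a magnesium transporter, had 7.35, 6.05 and 9.82 CPM in KO TAC hearts, against 14.2, 52.3 and 46.2 CPM in KO sham hearts, and Adamts4, a protease of the proteoglycan aggrecan, 0.540, 0.383 and 1.54 in KO TAC, against 2.34, 3.86 and 4.95 in KO sham. Without replicate 1 the log2 fold changes were −2.73 ± 0.15 for Vcl, −2.99 ± 0.11 for Timm23, −3.38 ± 0.18 for Taco1, −2.65 ± 0.17 for Slc41a3 and −2.36 ± 0.41 for Adamts4, with edgeR adjusted p of 8.66e-07, 2.14e-07, 7.23e-07, 1.97e-06 and 0.000924. With all 6 libraries they were −2.30, −2.52, −2.89, −2.28 and −2.15, each with an adjusted p of 0.228. Fam124b, Klhl11, Tmem171, Pcdhgc3 and Cfap298 completed the list, with log2 fold changes between −3.21 and −2.49 without replicate 1.

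**Figure D2:**
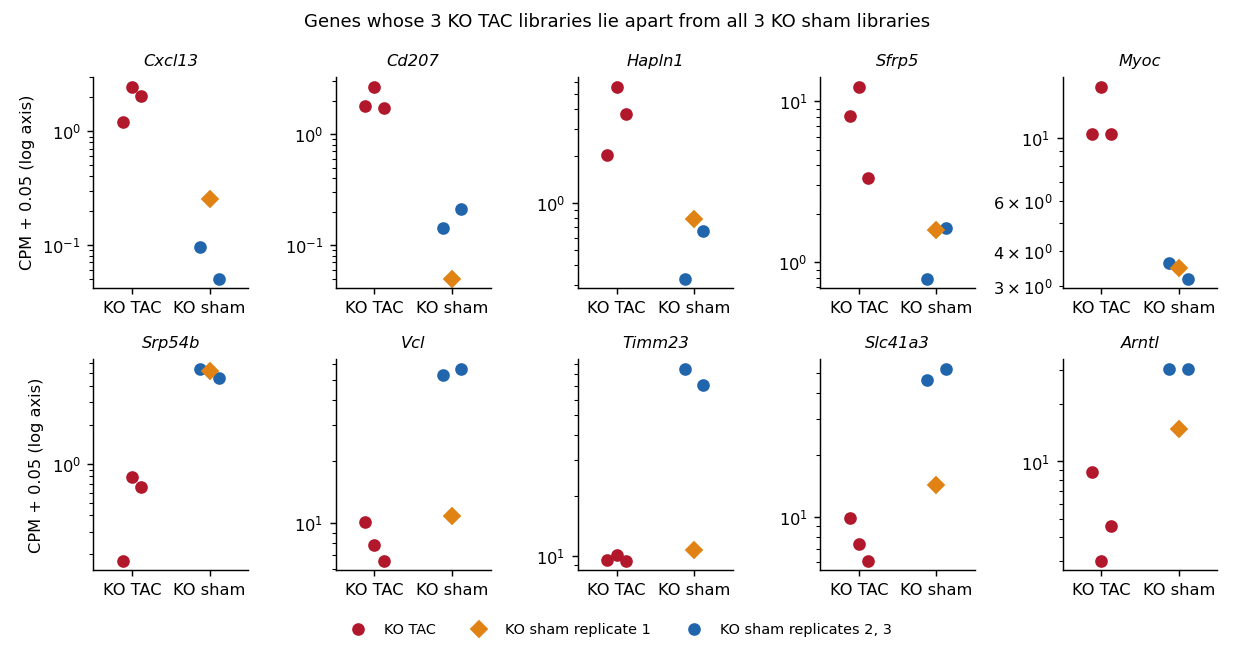
Levels of 10 genes whose 3 KO TAC libraries lie apart from all 3 KO sham libraries, as CPM + 0.05 on a log axis that differs between panels, with one point per library. In Cxcl13, Cd207, Hapln1, Sfrp5, Myoc and Srp54b the diamond of KO sham replicate 1 lies near the other sham hearts, and in Vcl, Timm23 and Slc41a3 it lies near the TAC hearts.

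In other genes that fell, replicate 1 stood with the other sham hearts. Ucp3, a mitochondrial carrier induced by fatty acids, had 20.6, 14.9 and 26.1 CPM in KO TAC hearts, against 37.8, 36.4 and 32.5 CPM in KO sham hearts, and its log2 fold change was −0.79 ± 0.22 with all 6 libraries and −0.73 ± 0.20 without replicate 1 (edgeR adjusted p = 0.228 and 0.0134). Scd4, a stearoyl-CoA desaturase of the heart, had 4.38, 2.68 and 4.17 CPM in KO TAC hearts, against 10.96, 17.96 and 9.89 CPM in KO sham hearts and changed by −1.78 ± 0.31 and −1.87 ± 0.29 in the same order (adjusted p = 0.228 and 0.000719). Mapk10, the stress kinase JNK3, had 8.03, 6.05 and 8.22 CPM in KO TAC hearts, against 12.5, 14.5 and 11.97 CPM in KO sham hearts and changed by −0.80 ± 0.19 and −0.81 ± 0.16 (adjusted p = 0.228 and 0.00172). No TAC heart overlapped a sham heart in these genes, which were chosen after their values were seen.

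Without KO sham replicate 1, oxidative enzymes were among the largest falls at levels of 5 CPM or more. Acadvl (ENSMUSG00000018574), the dehydrogenase that starts the oxidation of very long fatty acids, had 28.6, 25.3 and 31.1 CPM in KO TAC hearts, against 27.0, 352 and 330.5 CPM in KO sham hearts. Pdha1 (ENSMUSG00000031299), the catalytic subunit by which pyruvate enters the citric acid cycle, had 63.0, 54.0 and 60.3 CPM in KO TAC hearts, against 55.0, 579 and 495 CPM in KO sham hearts. Bckdha, of branched-chain amino acid breakdown, had 4.92, 3.98 and 5.97 CPM in KO TAC hearts, against 4.41, 55.0 and 48.2 CPM in KO sham hearts. In all 3 genes the 3 TAC hearts and sham replicate 1 formed 1 tight range, and the other sham hearts lay far above it.

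The log2 fold change of Acadvl was −3.58 ± 0.11 without replicate 1 (edgeR adjusted p = 9.77e-08) and −3.06 ± 0.83 with all 6 libraries (adjusted p = 0.228). Pdha1 changed by −3.17 ± 0.11 (adjusted p = 1.49e-07) and −2.67 ± 0.76 (adjusted p = 0.228). Irs1, the insulin receptor substrate, had 0.742, 0.843 and 0.578 CPM in KO TAC hearts, against 0.535, 9.22 and 6.01 CPM in KO sham hearts. Pm20d2, Gal3st3 and Schip1 fell, with log2 fold changes between −3.24 and −3.71. KO sham replicate 1 was within the TAC range or below it in Acadvl, Pdha1, Bckdha and Irs1.

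Among the largest rises at these levels were Bc1, a small noncoding RNA of the dendritic translation machinery, with 19.96, 18.7 and 14.2 CPM in KO TAC hearts, against 21.9, 0.487 and 0.231 CPM in KO sham hearts, and Dbp, an output factor of the circadian clock, with 45.3, 46.5 and 40.7 in KO TAC, against 29.3, 3.70 and 2.496 in KO sham. Platr32, a long noncoding RNA, had 6.41, 7.59 and 8.35 CPM in KO TAC hearts, against 5.55, 0.284 and 0.231 CPM in KO sham hearts. Replicate 1 was above every TAC heart in Bc1 and below every TAC heart in Dbp and Platr32. The heat shock genes Hspa1a and Hspa1b, near-identical copies that can share reads, had 19.5, 46.1 and 17.98 CPM and 26.6, 55.8 and 18.8 CPM in KO TAC hearts, against 17.8, 2.56 and 3.84 CPM and 20.5, 2.80 and 4.90 CPM in KO sham hearts.

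Fatty acid uptake and oxidation genes were lower in KO TAC hearts than in KO sham replicates 2 and 3. Of 33 members tested, 2 rose and 28 fell, with a median log2 fold change of −1.19 without replicate 1 and −0.86 with all 6 libraries, beside 0.01 and −0.01 over all genes. Summed over members the level was 6674, 6221 and 6142 CPM in KO TAC hearts, against 5509.6, 16056 and 15247 CPM in KO sham hearts, so replicate 1 was below all TAC hearts.

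By step of the pathway, the uptake protein Cd36 had 633, 667 and 601 CPM in KO TAC hearts, against 713, 1404 and 1406 CPM in KO sham hearts, with no overlap of groups. The activating ligase Acsl1 had 159.5, 161 and 166 CPM in KO TAC hearts, against 133, 619.9 and 531 CPM in KO sham hearts, and the carnitine carrier Slc25a20 had 35.1, 32.8 and 30.0 CPM in KO TAC hearts, against 24.1, 121 and 118 CPM in KO sham hearts. Replicate 1 was a little above the TAC range in Cd36 and below every TAC heart in Acsl1 and Slc25a20. The carnitine acyltransferase genes differed, since Cpt2 fell, with a log2 fold change of −1.21 ± 0.09 without replicate 1 (edgeR adjusted p = 2.98e-06) and Cpt1a changed by −0.10 ± 0.12 and was not called (adjusted p = 0.489).

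In the spiral itself, the medium-chain dehydrogenase Acadm had 173, 164 and 198 CPM in KO TAC hearts, against 147, 832 and 760.3 CPM in KO sham hearts, the trifunctional subunits Hadha and Hadhb changed by −1.97 ± 0.08 and −2.14 ± 0.08, and Hadh, the short-chain hydroxyacyl dehydrogenase, by −2.34 ± 0.09 (log2 fold changes without replicate 1, edgeR adjusted p = 3.01e-07, 2.39e-07 and 2.14e-07). Electron transfer from these enzymes split in direction. Etfdh, which passes the electrons to ubiquinone, changed by −2.5 ± 0.09, and Etfa by −2.14 ± 0.12. Etfb, the partner subunit of Etfa, had 119.9, 134 and 118 CPM in KO TAC hearts, against 82.3, 21.9 and 25.2 CPM in KO sham hearts and rose by 2.41 ± 0.12 without replicate 1 (edgeR adjusted p = 4.82e-07), with no overlap of the 6 libraries. Pdk4, the kinase that blocks pyruvate entry, had 110.4, 45.3 and 105 CPM in KO TAC hearts, against 84.2, 379.9 and 418 CPM in KO sham hearts.

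All 24 members of the citric acid cycle and pyruvate entry list fell, with a median of −1.56 without replicate 1 and −1.18 with all 6 libraries. Their summed level was 4932, 4830.3 and 4938 CPM in KO TAC hearts, against 3818, 13649 and 12689 CPM in KO sham hearts. Replicate 1 lay within or below the TAC range in each member, and none separated all 6 libraries. Cs, the citrate synthase that opens the cycle, had 262, 241 and 254 CPM in KO TAC hearts, against 220.2, 1144 and 1036 CPM in KO sham hearts. Sdha, the flavoprotein of succinate dehydrogenase, had 250.4, 215 and 239 CPM in KO TAC hearts, against 178, 1105 and 949.9 CPM in KO sham hearts. The smallest fall was that of Sdhb, the iron-sulfur subunit of the same enzyme, at −0.24 ± 0.08 (edgeR adjusted p = 0.0265), beside −2.11 ± 0.10 for Sdha (adjusted p = 4.82e-07).

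Glucose uptake and glycolysis genes were lower as well. Of 22 members, 2 rose and 18 fell, with medians of −0.96 without replicate 1 and −0.66 with all 6 libraries. Pgk1, a phosphoglycerate kinase, had 70.1, 51.4 and 64.9 CPM in KO TAC hearts, against 68.6, 312 and 296 CPM in KO sham hearts, and Slc2a4, the insulin-responsive transporter GLUT4, 104, 102 and 112 in KO TAC, against 83.5, 243 and 209 in KO sham. Pfkfb2, the cardiac isoform that raises the glycolytic activator fructose 2,6-bisphosphate, had 131, 171 and 165 CPM in KO TAC hearts, against 85.4, 78.9 and 99.7 CPM in KO sham hearts. Replicate 1 stood with the other sham hearts in Pfkfb2, whose log2 fold change was 0.82 ± 0.19 with all 6 libraries and 0.82 ± 0.14 without it (edgeR adjusted p = 0.228 and 0.000908). Hk1, Pfkp and Eno1 were below all sham hearts in all TAC hearts, and Pgam2, the muscle phosphoglycerate mutase, was above.

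Of 22 regulators of mitochondrial and metabolic genes, 1 rose and 11 fell. Prkaa2, a catalytic subunit of the energy sensor AMPK, had 21.2, 17.7 and 22.8 CPM in KO TAC hearts, against 17.05, 132 and 110.4 CPM in KO sham hearts, and Tfam, the packaging and transcription factor of mitochondrial DNA, 13.2, 13.7 and 12.97 in KO TAC, against 14.9, 34.2 and 33.6 in KO sham. Perm1, a muscle cofactor of the oestrogen-related receptors, had 96.7, 102 and 109 CPM in KO TAC hearts, against 69.7, 271 and 244 CPM in KO sham hearts. Ppargc1a, the coactivator PGC-1α, had 49.4, 54.3 and 23.8 CPM in KO TAC hearts, against 18.8, 85.3 and 119 CPM in KO sham hearts and was not called (−1.26 ± 0.42, edgeR adjusted p = 0.0624). Groups overlapped in Prkaa2, Perm1 and Ppargc1a through replicate 1, and in Tfam they did not.

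The oestrogen-related receptor half-site TNAAGGTCA, searched on both strands of RefSeq promoters (250 bases before to 50 after each gene's start, GRCm38.p6), was in 0 of 30 promoters of the fatty acid list and in 1 of 27 of the citric acid cycle list (3.7%, Sdhd). It was in 421 of all 32851 promoters (1.28%).

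Respiratory chain genes of the nucleus moved in both directions, unlike the citric acid cycle genes. Of 36 subunit genes, 12 rose and 19 fell, with medians of −0.36 without replicate 1 and −0.19 with all 6 libraries. In 14 members all TAC hearts were above all sham hearts, and in 0 below. Of the 12 members that rose, 7 were of complex IV. Cox5b had 846, 912 and 860.3 CPM in KO TAC hearts, against 612, 401 and 392 CPM in KO sham hearts, and Cox8b, a muscle isoform, 374, 426 and 353 in KO TAC, against 279.9, 162 and 146 in KO sham. Cox4i1, Cox6a2, Cox6c, Cox7a1 and Ndufa4, now assigned to complex IV, rose too, by log2 values between 0.46 and 0.90, while Cox5a changed by −1.16 ± 0.09 without replicate 1 (edgeR adjusted p = 3.31e-06).

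In complex I the accessory subunits Ndufa1 and Ndufa5 rose, and the core subunit Ndufs1 fell. Ndufa1 had 235, 258 and 231 CPM in KO TAC hearts, against 191, 75.2 and 68.6 CPM in KO sham hearts, and Ndufa5 rose by 1.68 ± 0.10. Ndufs1, the largest core subunit, had 134, 119 and 131 CPM in KO TAC hearts, against 107, 504 and 459 CPM in KO sham hearts. In complex III Uqcrc2, a core protein, had 90.6, 73.0 and 88.0 CPM in KO TAC hearts, against 75.1, 624 and 585 CPM in KO sham hearts and Uqcrh, the hinge protein, 474, 461 and 511 in KO TAC, against 394, 367 and 354 in KO sham. In ATP synthase, Atp5a1 and Atp5b of the catalytic head and Atp5c1 of the central stalk fell, with log2 fold changes between −0.83 and −1.39 without replicate 1. Atp5d, also of the central stalk, rose by 0.72 ± 0.09 (edgeR adjusted p = 8.96e-05), and Atp5o and Atp5j were not called.

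The longest annotated transcript had a median length of 832 bases for the 12 subunits that rose and 1845 bases for the 19 that fell. It was 3254 bases for all coding genes that rose, 3580 for those that fell and 3464 for all coding genes tested.

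**Figure D3:**
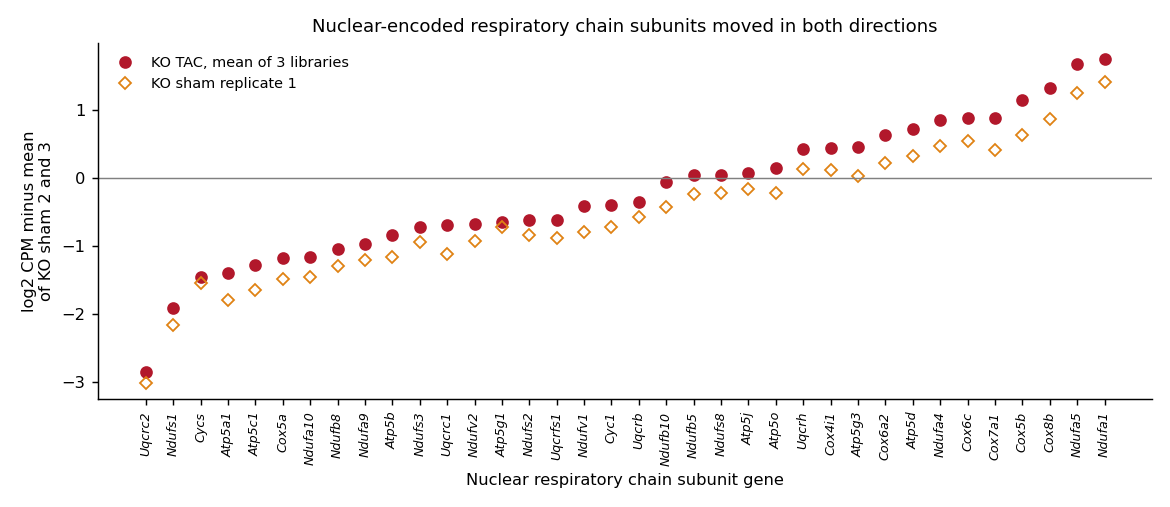
Log2 CPM minus the mean of KO sham replicates 2 and 3 for 36 nuclear respiratory chain subunits, ordered by the KO TAC mean (filled circles), with KO sham replicate 1 as open diamonds. Replicate 1 runs along the TAC values and below them in all 36, from Uqcrc2 at the left to Ndufa1 at the right.

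Protein genes of the mitochondrial genome were mostly higher in KO TAC hearts. Of 13 genes, 12 rose and 0 fell, with medians of 0.94 without replicate 1 and 0.53 with all 6 libraries. mt-Co2, subunit 2 of complex IV, had 20609, 15786 and 14098 CPM in KO TAC hearts, against 17114, 6629 and 6919.8 CPM in KO sham hearts, and mt-Nd6, the complex I subunit read from the light strand, 9399, 9022 and 7646 in KO TAC, against 8827, 4281 and 3169.9 in KO sham. Replicate 1 lay within the TAC range in both, and no member separated all 6 libraries. The tRNA gene mt-Ta had 53.1, 101 and 61.8 CPM in KO TAC hearts, against 41.2, 4.47 and 4.11 CPM in KO sham hearts, and there all TAC hearts were above all sham hearts. Transcripts of the mitochondrial genome took the 44.0 to 51.3% of counts in KO TAC hearts given above.

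Calcium handling and ion channel genes were mostly lower in KO TAC hearts than in KO sham replicates 2 and 3. Of 28 members, 1 rose and 19 fell, with medians of −0.81 without replicate 1 and −0.55 with all 6 libraries, and the summed level was 6245, 5950.2 and 6220.0 CPM in KO TAC hearts, against 5492, 16832 and 14731 CPM in KO sham hearts. Atp2a2 (ENSMUSG00000029467), the SERCA2 pump that returns calcium to the sarcoplasmic reticulum, had 2465, 2033 and 2304 CPM in KO TAC hearts, against 1985, 8579 and 7506 CPM in KO sham hearts. Pln, the phospholamban that restrains this pump, had 495, 548 and 509.7 CPM in KO TAC hearts, against 398, 2036 and 1840.2 CPM in KO sham hearts. Ryr2, the calcium release channel, had 333, 327 and 367 CPM in KO TAC hearts, against 336, 1007 and 819.8 CPM in KO sham hearts. The pump, its inhibitor and the release channel each stood at 2-fold or more higher levels in KO sham replicates 2 and 3 than in the other 4 libraries.

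Their log2 fold changes were −1.81 ± 0.11, −1.89 ± 0.09 and −1.40 ± 0.11 without replicate 1 (edgeR adjusted p = 1.23e-06, 4.82e-07 and 3.83e-06) and −1.41 ± 0.52, −1.46 ± 0.56 and −1.07 ± 0.40 with all 6 libraries (adjusted p = 0.228, 0.228 and 0.228). Casq2, the calcium store protein calsequestrin, had 261, 221 and 277 CPM in KO TAC hearts, against 283, 776 and 695 CPM in KO sham hearts, and Gja1, the gap junction protein connexin 43, 124, 149.8 and 146 in KO TAC, against 157, 472 and 381 in KO sham. In these last genes no TAC heart reached the lowest sham heart, which was replicate 1. Among potassium channels, Kcnd2, a pore subunit of the transient outward current, had 4.32, 4.37 and 5.14 CPM in KO TAC hearts, against 2.47, 20.7 and 18.9 CPM in KO sham hearts and Kcnj2, of the inward rectifier, 7.89, 9.81 and 8.22 in KO TAC, against 8.69, 26.6 and 24.4 in KO sham. Cacna1c, the pore of the L-type calcium channel, was the member that rose, by 0.51 ± 0.14 (adjusted p = 0.0130).

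Sarcomere genes split. Of 25 members, 7 rose and 13 fell, with medians of −0.40 without replicate 1 and −0.18 with all 6 libraries. Tcap (ENSMUSG00000007877), the telethonin that caps titin at the Z-disc, had 1939, 1996 and 1597 CPM in KO TAC hearts, against 1116, 294 and 229 CPM in KO sham hearts, with no overlap of groups and a log2 fold change of 1.75 ± 0.61 with all 6 libraries (edgeR adjusted p = 0.228) and 2.83 ± 0.15 without replicate 1 (adjusted p = 7.86e-07). The troponin genes Tnni3 and Tnnc1 and the ventricular light chain Myl2 were also above all sham hearts. Tnni3, the inhibitory troponin, had 4273, 4682 and 4449 CPM in KO TAC hearts, against 3259, 2957 and 2729 CPM in KO sham hearts, and Myl2 8219, 9317 and 8006 in KO TAC, against 5457, 6400.0 and 5975 in KO sham. Replicate 1 was the lowest of all 6 libraries in Myl2 and the highest sham heart in Tnni3.

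On the falling side, Actc1, the cardiac alpha-actin, had 2187, 1968 and 2142 CPM in KO TAC hearts, against 1999, 8609 and 9659 CPM in KO sham hearts, and Tmod1, the cap of thin filament pointed ends, 22.3, 15.2 and 23.8 in KO TAC, against 19.0, 151 and 122 in KO sham. Myom2, an M-band protein, had 289.6, 326 and 302 CPM in KO TAC hearts, against 326, 1047 and 679 CPM in KO sham hearts and was, by a small margin, the member with all TAC hearts below all sham hearts. The titin gene Ttn was not called (0.01 ± 0.11, edgeR adjusted p = 0.915), nor was Tnnt2, the cardiac troponin T (0.12 ± 0.11, adjusted p = 0.369). The median transcript length was 948 bases for the 7 members that rose and 3028 bases for the 13 that fell.

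The fetal and stress genes that mark pressure overload moved in both directions. Of 21 tested, 5 rose and 7 fell, and the median was −0.07 without replicate 1 and −0.09 with all 6 libraries, and both were above 0 without KO TAC replicate 5. Myh7, the fetal beta-myosin heavy chain, had 650.4, 695 and 540.4 CPM in KO TAC hearts, against 447, 353 and 303 CPM in KO sham hearts. Myh7 rose by 0.95 ± 0.12 without replicate 1 (edgeR adjusted p = 0.000103) and changed by 0.77 ± 0.24 with all 6 libraries (adjusted p = 0.228). All TAC hearts were above all sham hearts in Myh7 and, at low levels, in Tnni1, which was not tested with all 6 libraries. Tnni1 had 1.82, 0.536 and 2.12 CPM in KO TAC hearts, against 0.401, 0.366 and 0.416 CPM in KO sham hearts. It rose by 1.96 ± 0.55 without replicate 1 (edgeR adjusted p = 0.0114). Nppb, the ventricular natriuretic peptide BNP, had 286, 314 and 193 CPM in KO TAC hearts, against 400.5, 267 and 290.5 CPM in KO sham hearts, and its groups overlapped (−0.07 ± 0.19 without replicate 1, edgeR adjusted p = 0.793). Acta1, the skeletal alpha-actin of the fetal programme, had 1224, 1107 and 1069.9 CPM in KO TAC hearts, against 1360.1, 504 and 792 CPM in KO sham hearts and rose by 0.82 ± 0.18 (adjusted p = 0.00544), with replicate 1 highest of all. Nppa, the atrial peptide ANP, had 822, 314 and 524 CPM in KO TAC hearts, against 1132, 184 and 107 CPM in KO sham hearts and was not called (1.94 ± 0.58, adjusted p = 0.0579). Rcan1, a calcineurin target that restrains calcineurin, had 58.5, 66.3 and 53.1 CPM in KO TAC hearts, against 74.4, 121 and 131 CPM in KO sham hearts and was below all sham hearts in all TAC hearts.

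Fibrillar and basement membrane genes were mostly lower in KO TAC hearts. Of 25 members, 3 rose, 15 fell, and in 15 all TAC hearts were below all sham hearts, in 0 above. The medians were −0.49 without replicate 1 and −0.53 with all 6 libraries. Measured from the mean of KO sham replicates 2 and 3, the list median was −0.03 in replicate 1. It was −0.42, −0.54 and −0.44 in KO TAC hearts. Members differed in this. Over those called, the median position of replicate 1 was 0.542 (0, sham replicates 2 and 3; 1, TAC), and in Lama2 it lay within the TAC range. Col3a1 (ENSMUSG00000026043), a fibrillar collagen of the interstitium, had 194, 165 and 225 CPM in KO TAC hearts, against 311, 319 and 355 CPM in KO sham hearts. Col4a1 (ENSMUSG00000031502), of the basement membrane, had 368, 388 and 420.3 CPM in KO TAC hearts, against 562, 694 and 798 CPM in KO sham hearts. Every sham heart was above every TAC heart in both collagens.

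Col3a1 changed by −0.76 ± 0.20 with all 6 libraries (edgeR adjusted p = 0.228) and by −0.78 ± 0.13 without replicate 1 (adjusted p = 0.000459), and Col4a1 by −0.80 ± 0.22 (adjusted p = 0.228) and −0.91 ± 0.10 (adjusted p = 3.02e-05). Col1a1, the main fibrillar collagen, had 81.6, 68.8 and 84.0 CPM in KO TAC hearts, against 109, 99.6 and 131 CPM in KO sham hearts, and the laminin gene Lamc1 98.8, 84.5 and 109 in KO TAC, against 122, 206 and 227 in KO sham. Eln, elastin, had 71.4, 66.7 and 60.0 CPM in KO TAC hearts, against 86.4, 78.7 and 93.8 CPM in KO sham hearts. The proteoglycan genes Dcn and Bgn and the collagen gene Col12a1 rose, and Dcn, decorin, had 900.0, 847 and 729 CPM in KO TAC hearts, against 803, 489 and 505 CPM in KO sham hearts.

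Of 29 matricellular and remodelling genes, 14 rose and 6 fell without replicate 1. Their median was 0.56 without it and 0.11 with all 6 libraries, where its sign changed in 6 of 18 alternatives. These were library totals without TMM scaling, both replicate blocks, and the fits without KO TAC replicate 5, KO sham replicate 2 or KO sham replicate 3. Of the 28 members tested with all 6 libraries, all TAC hearts were above all sham hearts in 3 and below in 5, beside 11.7% and 10.8% of all genes. Postn, the periostin of activated fibroblasts, had 168, 136 and 137 CPM in KO TAC hearts, against 253, 60.0 and 92.2 CPM in KO sham hearts. Thbs4, a thrombospondin induced in stressed heart, had 28.6, 23.6 and 22.3 CPM in KO TAC hearts, against 38.4, 4.18 and 5.82 CPM in KO sham hearts, and Comp, another thrombospondin, 20.1, 13.3 and 16.1 in KO TAC, against 27.8, 2.76 and 3.84 in KO sham. Spp1, osteopontin, had 3.98, 2.91 and 2.18 CPM in KO TAC hearts, against 4.28, 0.406 and 0.555 CPM in KO sham hearts. In these 4 genes replicate 1 was above all TAC hearts, and the other sham hearts were below all TAC hearts.

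The stromelysin gene Mmp3 and the gelatinase gene Mmp9 were above all sham hearts. Mmp3 had 9.64, 7.89 and 7.32 CPM in KO TAC hearts, against 6.68, 2.32 and 3.88 CPM in KO sham hearts. Mmp14, whose product activates MMP2, and Mmp2, a collagen IV gelatinase, were below all sham hearts, and Mmp14 had 8.16, 5.44 and 8.54 CPM in KO TAC hearts, against 13.4, 17.5 and 17.4 CPM in KO sham hearts. Of 30 genes of TGF-beta family signalling, 13 rose and 6 fell. Ltbp2, a latent TGF-beta binding protein relative, had 28.3, 20.4 and 23.8 CPM in KO TAC hearts, against 49.9, 5.12 and 7.16 CPM in KO sham hearts, and Id1, a target of bone morphogenetic protein signals, 96.6, 108 and 99.3 in KO TAC, against 86.8, 29.4 and 37.3 in KO sham. Tgfb1 was not called (0.23 ± 0.12, edgeR adjusted p = 0.117).

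Resident macrophage markers, Cd163 among them, moved in both directions. Of 20 tested, 10 rose and 3 fell, with medians of 0.34 without replicate 1 and 0.10 with all 6 libraries (below 0 there on library totals without TMM scaling), and the summed level was 677, 622 and 602 CPM in KO TAC hearts, against 682, 723 and 705 CPM in KO sham hearts. Lyve1, a hyaluronan receptor, had 35.6, 26.1 and 24.0 CPM in KO TAC hearts, against 21.5, 16.2 and 19.5 CPM in KO sham hearts, and Pf4, a platelet chemokine that resident macrophages share, 13.7, 13.6 and 12.2 in KO TAC, against 9.83, 10.4 and 8.60 in KO sham. Maf, a transcription factor of these cells, had 44.2, 48.1 and 33.8 CPM in KO TAC hearts, against 36.9, 16.3 and 14.7 CPM in KO sham hearts. Folr2 and Selenop fell, and Selenop, a selenium carrier that other heart cells make too, had 103, 80.8 and 84.1 CPM in KO TAC hearts, against 106, 254 and 237 CPM in KO sham hearts. Mrc1, the mannose receptor, was not called (0.06 ± 0.09, edgeR adjusted p = 0.609).

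Of 23 general macrophage and monocyte markers, 9 rose and 4 fell, with a median of 0.16 that was −0.09 on library totals without TMM scaling. Lgals3, the galectin of scar macrophages, had 9.91, 6.51 and 8.41 CPM in KO TAC hearts, against 17.6, 1.79 and 1.62 CPM in KO sham hearts, and Aif1 had 4.45, 4.75 and 5.65 in KO TAC, against 4.48, 1.50 and 1.71 in KO sham. Adgre1, which encodes the F4/80 antigen, had 4.92, 4.14 and 4.75 CPM in KO TAC hearts, against 5.88, 13.4 and 12.1 CPM in KO sham hearts and was below all sham hearts in all TAC hearts, while Cd68 was not called. Ccr2, the receptor of recruited monocytes, had 1.55, 2.45 and 2.83 CPM in KO TAC hearts, against 3.07, 3.49 and 1.53 CPM in KO sham hearts and the groups overlapped.

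Of 36 chemokine and cytokine genes, 25 were tested. Of these 14 rose and 2 fell, with medians of 0.85 without replicate 1 and 0.62 with all 6 libraries. In 8 all TAC hearts were above all sham hearts, and in 0 below. Beside Cxcl13, Ccl7 and Ccl12, which draw monocytes through CCR2, separated the groups. Ccl12 had 1.48, 1.61 and 1.67 CPM in KO TAC hearts, against 0.802, 0.325 and 0.462 CPM in KO sham hearts, and Ccl7 1.82, 2.45 and 3.21 in KO TAC, against 1.34, 0.528 and 0.924 in KO sham. Cxcl9, an interferon-gamma target that draws T cells, had 10.99, 15.2 and 15.2 CPM in KO TAC hearts, against 10.1, 7.52 and 7.95 CPM in KO sham hearts, and Csf1, the growth factor of macrophages, 63.7, 65.9 and 52.0 in KO TAC, against 42.9, 44.2 and 36.1 in KO sham.

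Ccl8 had 2.83, 2.76 and 1.798 CPM in KO TAC hearts, against 2.81, 0.244 and 0.185 CPM in KO sham hearts and overlapped through replicate 1. The lymphatic chemokine Ccl21a, which has near-identical copies, had 29.7, 27.1 and 29.1 CPM in KO TAC hearts, against 20.7, 9.14 and 14.8 CPM in KO sham hearts. Il33, an alarmin of stromal cells, rose by 1.23 ± 0.21 without replicate 1 (edgeR adjusted p = 0.000544), and Il1b was not called (1.44 ± 0.56, adjusted p = 0.0510). Tnf was not called either. Cxcl12 and Il15 were the members that fell.

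The interleukin-10 axis beyond Il10 itself showed no common direction, with 5 of 13 genes higher and 3 lower and medians of −0.13 without replicate 1 and −0.05 with all 6 libraries. Il10ra, the ligand-binding receptor chain, rose by 0.64 ± 0.21 and Il10rb, the shared chain, changed by −0.60 ± 0.10 (edgeR adjusted p = 0.0215 and 0.000521). Socs3, a feedback inhibitor induced through STAT3, had 5.53, 5.21 and 4.49 CPM in KO TAC hearts, against 4.08, 2.15 and 3.74 CPM in KO sham hearts, with no overlap of groups. Sbno2, a target of interleukin-10 in macrophages, had 42.9, 44.3 and 42.8 CPM in KO TAC hearts, against 49.1, 17.1 and 19.0 CPM in KO sham hearts, and replicate 1 was the highest library. Stat3 was not called (−0.31 ± 0.13, adjusted p = 0.0525).

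Genes of haem and iron handling, the pathway that CD163 feeds, were 8 higher and 10 lower of 26. Hmox1, the inducible haem oxygenase, had 6.14, 5.67 and 4.75 CPM in KO TAC hearts, against 4.95, 6.46 and 5.68 CPM in KO sham hearts and was not called (−0.13 ± 0.18, edgeR adjusted p = 0.557). Hmox2, the constitutive enzyme, had 10.9, 12.4 and 12.3 CPM in KO TAC hearts, against 13.1, 39.9 and 35.6 CPM in KO sham hearts, and Slc40a1, the iron exporter ferroportin, 4.86, 4.75 and 4.49 in KO TAC, against 5.61, 16.9 and 12.7 in KO sham. Both were below all sham hearts in all TAC hearts. Alas1, the first enzyme of haem synthesis, changed by −2.25 ± 0.10 (adjusted p = 3.58e-07). Hp and Hpx, the plasma carriers of haemoglobin and haem, rose at low levels, and Hp had 6.74, 4.14 and 4.94 CPM in KO TAC hearts, against 6.48, 0.934 and 0.832 CPM in KO sham hearts.

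Of the mast cell protease genes, 4 separated all 6 libraries. Of 14 members of the neutrophil and mast cell list, 8 were tested and the others had too few counts. All 8 rose, with medians of 1.99 without replicate 1 and 1.47 with all 6 libraries. The filter on low counts can pass a gene through the group where it is high. The count and medians therefore depend in part on that filter. Mcpt4, the mast cell chymase of connective tissue, had 4.79, 3.75 and 3.34 CPM in KO TAC hearts, against 2.41, 0.731 and 0.878 CPM in KO sham hearts. Cma1, another chymase, had 2.09, 3.29 and 2.76 CPM in KO TAC hearts, against 1.74, 0.650 and 0.647 CPM in KO sham hearts, Tpsb2, a tryptase, 2.63, 2.84 and 2.31 in KO TAC, against 1.47, 0.813 and 0.555 in KO sham, and Cpa3, the mast cell carboxypeptidase, 1.62, 1.76 and 1.16 in KO TAC, against 0.602, 0.528 and 0.416 in KO sham. Each of these 4 genes was higher in every TAC heart than in any sham heart.

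Mcpt4 changed by 1.60 ± 0.48 with all 6 libraries (edgeR adjusted p = 0.228) and by 2.31 ± 0.28 without replicate 1 (adjusted p = 7.07e-05), and Cpa3 by 1.55 ± 0.34 (adjusted p = 0.228) and 1.66 ± 0.37 (adjusted p = 0.00310). The neutrophil calprotectin genes S100a8 and S100a9 rose too but overlapped through replicate 1, and S100a8 had 0.674, 1.46 and 0.770 CPM in KO TAC hearts, against 1.27, 0.0406 and 0.0924 CPM in KO sham hearts. The neutrophil granule genes Ngp and Camp were at or near 0 in all 6 libraries.

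Of 28 interferon response genes, 19 rose and 0 fell, with medians of 0.70 without replicate 1 and 0.44 with all 6 libraries. Oas2, an antiviral oligoadenylate synthetase, had 79.8, 74.6 and 80.1 CPM in KO TAC hearts, against 69.7, 22.9 and 28.2 CPM in KO sham hearts, and Irf1, an interferon-induced transcription factor, 31.4, 40.7 and 29.8 in KO TAC, against 28.5, 16.5 and 16.5 in KO sham. Both separated all 6 libraries. Stat2, of the interferon-activated complex ISGF3, had 76.1, 91.6 and 99.3 CPM in KO TAC hearts, against 89.6, 27.8 and 28.7 CPM in KO sham hearts and overlapped through replicate 1. Isg15, Ifit2 and Rsad2 were not called.

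Of 15 antigen presentation genes, 8 rose and 2 fell, and in 0 the 6 libraries separated. The class I genes H2-K1, H2-D1 and B2m, the transporters Tap1 and Tap2 and the immunoproteasome subunits Psmb8 and Psmb9 rose. Psmb8 had 18.7, 26.1 and 30.4 CPM in KO TAC hearts, against 19.7, 6.13 and 6.05 CPM in KO sham hearts, and B2m, the light chain of class I, 443, 492 and 484 in KO TAC, against 493, 212 and 225 in KO sham. Nlrc5, the activator of class I transcription, had 14.4, 19.6 and 22.9 CPM in KO TAC hearts, against 16.3, 5.24 and 5.68 CPM in KO sham hearts. Replicate 1 was within the TAC range in Psmb8 and Nlrc5 and just above it in B2m. The class II genes H2-Aa and H2-Eb1 fell, with log2 fold changes of −0.40 ± 0.10 and −0.42 ± 0.14 without replicate 1 (edgeR adjusted p = 0.00738 and 0.0225), and Cd74, the class II chaperone, was not called.

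Of 18 complement genes tested, 10 rose and 0 fell, with medians of 0.41 without replicate 1 and 0.22 with all 6 libraries, where it was below 0 without KO sham replicate 2. C4b had 42.9, 38.2 and 40.4 CPM in KO TAC hearts, against 52.5, 7.11 and 11 CPM in KO sham hearts, and C3, the central component, 95.6, 88.0 and 105 in KO TAC, against 143, 32.3 and 37.5 in KO sham. Replicate 1 was the highest library in both. Cd59a, which blocks the membrane attack complex, had 60.0, 55.5 and 56.7 CPM in KO TAC hearts, against 43.1, 42.2 and 43.9 CPM in KO sham hearts, and there replicate 1 matched the other sham hearts.

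Circadian clock genes moved in both directions. The core activators Arntl (BMAL1) and Clock drive the Per and Cry repressors and the output factors Dbp, Tef and Hlf through E-box sites, and the repressors then silence the activators over each day. Of 19 members, 10 rose and 6 fell, with medians of 0.45 without replicate 1 and 0.41 with all 6 libraries. In 8 all TAC hearts were above all sham hearts, and in Arntl and Npas2 all were below. The hour of collection is not stated in the labels, and its part in these values was not tested.

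The perfect E-box CACGTG, read on both strands, was in 6 of 21 RefSeq promoters of 16 matched clock genes (28.57%) and in 2349 of 32851 promoters in all (7.15%). The promoters of Ciart, Per1 and Tef are shown as examples of genes that rose and hold it. The promoters of Bhlhe41, which rose, and Cry1, which fell, hold it as well, and Tef is counted with more than 1 promoter. No match was found for other clock genes, Dbp, Per2, Per3 and Nr1d2 among them, though not every clock gene had a promoter to search. The promoters shown run from 250 bases before to 50 after the start, in GRCm38.p6, 5′ to 3′ on the gene's strand, with the E-box in capitals.
Ciart promoter, chr3:95882179-95882478, minus strand: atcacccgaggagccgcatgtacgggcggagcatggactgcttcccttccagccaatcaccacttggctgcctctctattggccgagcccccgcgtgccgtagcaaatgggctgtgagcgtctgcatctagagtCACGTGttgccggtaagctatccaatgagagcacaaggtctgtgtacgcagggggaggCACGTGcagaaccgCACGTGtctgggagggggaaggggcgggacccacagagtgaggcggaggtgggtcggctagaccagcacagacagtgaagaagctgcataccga
Per1 promoter, chr11:69098699-69098998, plus strand: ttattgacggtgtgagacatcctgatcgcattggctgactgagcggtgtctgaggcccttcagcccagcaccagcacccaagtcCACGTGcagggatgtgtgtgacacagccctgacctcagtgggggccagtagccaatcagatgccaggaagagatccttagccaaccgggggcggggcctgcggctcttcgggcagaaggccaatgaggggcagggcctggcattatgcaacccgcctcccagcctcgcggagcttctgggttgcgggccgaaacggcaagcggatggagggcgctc
Tef promoter, chr15:81802423-81802722, plus strand: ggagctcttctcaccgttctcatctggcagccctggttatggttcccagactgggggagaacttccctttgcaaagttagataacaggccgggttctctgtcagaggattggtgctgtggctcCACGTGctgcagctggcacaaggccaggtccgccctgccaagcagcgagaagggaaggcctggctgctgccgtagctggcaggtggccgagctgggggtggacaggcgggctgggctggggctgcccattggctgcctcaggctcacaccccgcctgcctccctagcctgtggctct
The Ciart promoter holds 3 E-boxes and each of the others 1, and a match is a description of the sequence, not of binding.

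Arntl (ENSMUSG00000055116) had 2.97, 4.52 and 8.80 CPM in KO TAC hearts, against 14.8, 30.5 and 30.4 CPM in KO sham hearts, and its partner Npas2 had 1.75, 3.14 and 3.85 in KO TAC, against 7.95, 9.47 and 8.69 in KO sham. Ciart, a repressor of the activators and the gene with 3 E-boxes, had 17.3, 16.4 and 9.25 CPM in KO TAC hearts, against 8.15, 3.37 and 2.96 CPM in KO sham hearts, and Tef, a PAR-domain output factor, 289.8, 279.8 and 203 in KO TAC, against 152, 60.3 and 51.9 in KO sham. Every TAC heart was above every sham heart in Ciart and Tef, and below in Arntl and Npas2, with replicate 1 the sham heart nearest to TAC in each. Per1 had 99.5, 101 and 166 CPM in KO TAC hearts, against 121, 37.5 and 52.9 CPM in KO sham hearts and overlapped through replicate 1.

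The repressor Per2 had 121, 139.8 and 37.3 CPM in KO TAC hearts, against 35.4, 4.59 and 9.80 CPM in KO sham hearts, Per3 79.1, 74.0 and 61.4 in KO TAC, against 42.4, 11.7 and 9.34 in KO sham, and the REV-ERB genes Nr1d1 40.6, 40.5 and 27.7 in KO TAC, against 26.9, 20.5 and 16.7 in KO sham and Nr1d2 280.3, 302 and 208 in KO TAC, against 166, 45.0 and 43.0 in KO sham. Cry1, the late repressor, had 10.7, 7.203 and 6.23 CPM in KO TAC hearts, against 6.95, 19.8 and 21.8 CPM in KO sham hearts and fell. Within the TAC group, replicate 5 stood apart from replicates 1 and 3, with the lowest Per2, Per3, Nr1d2 and Tef and the highest Arntl. The log2 fold change was −2.21 ± 0.45 for Arntl with all 6 libraries (edgeR adjusted p = 0.228) and −2.46 ± 0.39 without replicate 1 (adjusted p = 0.00366), and for Nr1d2 1.64 ± 0.55 (adjusted p = 0.228) and 2.59 ± 0.16 (adjusted p = 2.34e-06). In the WT hearts, fitted together with the KO libraries, Arntl changed by −2.16 ± 0.33 after TAC (edgeR adjusted p = 0.00647, and 0.0722 with all 12 libraries) and Dbp by 4.06 ± 0.20 (adjusted p = 5.12e-07, and 0.0718). The difference between genotypes was not called for either (edgeR adjusted p = 0.698 and 0.612 without KO sham replicate 1).

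Cytosolic ribosomal protein genes rose together, 23 higher and 2 lower of 26, with medians of 0.76 without replicate 1 and 0.47 with all 6 libraries. In 21 all TAC hearts were above all sham hearts, and in 0 below. Rplp1, of the ribosomal stalk, had 381, 362 and 348 CPM in KO TAC hearts, against 317, 121 and 120.2 CPM in KO sham hearts, and Rps27, of the small subunit, 115, 107 and 104 in KO TAC, against 96.1, 34.1 and 33.3 in KO sham. Replicate 1 was the sham heart nearest to TAC in both. Rplp0 and Rps2 fell, and these genes have processed pseudogenes that can share their reads. The median transcript length was 1020 bases for the 23 that rose.

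Of 11 nuclear long noncoding RNAs tested, 8 rose and 0 fell. Neat1, the scaffold of nuclear paraspeckles, had 3666, 4935 and 3612 CPM in KO TAC hearts, against 3042, 550.0 and 730.4 CPM in KO sham hearts and separated all 6 libraries, with log2 fold changes of 1.50 ± 0.65 with all of them and 2.68 ± 0.19 without replicate 1 (edgeR adjusted p = 0.233 and 7.42e-06). Malat1 was not called (−0.25 ± 0.27, adjusted p = 0.456). Long intergenic noncoding RNAs took 0.515, 0.674 and 0.624% of counts in KO TAC hearts, against 0.498, 0.348 and 0.349% in KO sham hearts.

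Of 22 endoplasmic reticulum genes, 13 fell and 4 rose, with medians of −0.49 without replicate 1 and −0.40 with all 6 libraries. Hspa5, the chaperone BiP, had 249.8, 236 and 229 CPM in KO TAC hearts, against 237, 625 and 511 CPM in KO sham hearts, and Calr, calreticulin, 158, 153 and 152 in KO TAC, against 172, 292 and 266 in KO sham. The members that rose were Atf4, Ddit3, Trib3 and Chac1, of the branch that runs through ATF4. Ddit3, the factor CHOP, had 32.8, 49.9 and 24.4 CPM in KO TAC hearts, against 18.6, 14.95 and 12.2 CPM in KO sham hearts, and Trib3, a pseudokinase it induces, 7.22, 6.44 and 4.37 in KO TAC, against 3.008, 2.11 and 2.36 in KO sham. Calr was below all sham hearts in all TAC hearts, and Ddit3 and Trib3 were above.

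Of 30 antioxidant genes, 8 rose and 13 fell. Sod1, the cytosolic superoxide dismutase, had 222, 239 and 237 CPM in KO TAC hearts, against 201, 126 and 119.7 CPM in KO sham hearts, and Sod2, the mitochondrial one, 174, 162 and 174 in KO TAC, against 141, 469.9 and 429.8 in KO sham. Prdx3, a mitochondrial peroxiredoxin, changed by −1.84 ± 0.10, and Gpx4, which reduces lipid peroxides, rose by 0.55 ± 0.08 (edgeR adjusted p = 8.47e-07 and 0.000283 without replicate 1). Of 29 genes of apoptosis and cell death, 13 rose and 4 fell, among them Casp4, an inflammatory caspase, with 9.58, 8.74 and 9.44 CPM in KO TAC hearts, against 9.29, 2.80 and 3.05 CPM in KO sham hearts, and Gsdmd, the pore protein gasdermin D, with 25.3, 28.7 and 25.6 in KO TAC, against 28.7, 9.51 and 11.3 in KO sham. Replicate 1 was within or above the TAC range in Casp4 and Gsdmd.

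Of 24 autophagy and proteasome genes, 3 rose and 16 fell. Lamp2, a lysosomal membrane protein, had 98.7, 100.2 and 92.9 CPM in KO TAC hearts, against 106, 162 and 149 CPM in KO sham hearts, and Ctsb, a lysosomal cathepsin, 199.9, 169.8 and 189.8 in KO TAC, against 221, 352 and 368 in KO sham, both below all sham hearts in all TAC hearts. Of 21 heat shock and chaperone genes, 5 rose and 7 fell, and the mitochondrial chaperone Hspd1 changed by −1.50 ± 0.10 without replicate 1 (edgeR adjusted p = 1.59e-06). Of 23 immediate early genes 4 rose and 0 fell, with wide spread among TAC hearts, as in Fos at 3.30, 13.2 and 48.6 CPM in KO TAC hearts, against 29.9, 9.39 and 4.90 CPM in KO sham hearts. Of 23 cell cycle genes, 2 rose and 6 fell, and in 6 all TAC hearts were below all sham hearts, as in Top2a, the topoisomerase of dividing cells, at 2.70, 2.15 and 2.63 in KO TAC, against 4.81, 6.38 and 7.86 in KO sham.

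**Figure D4:**
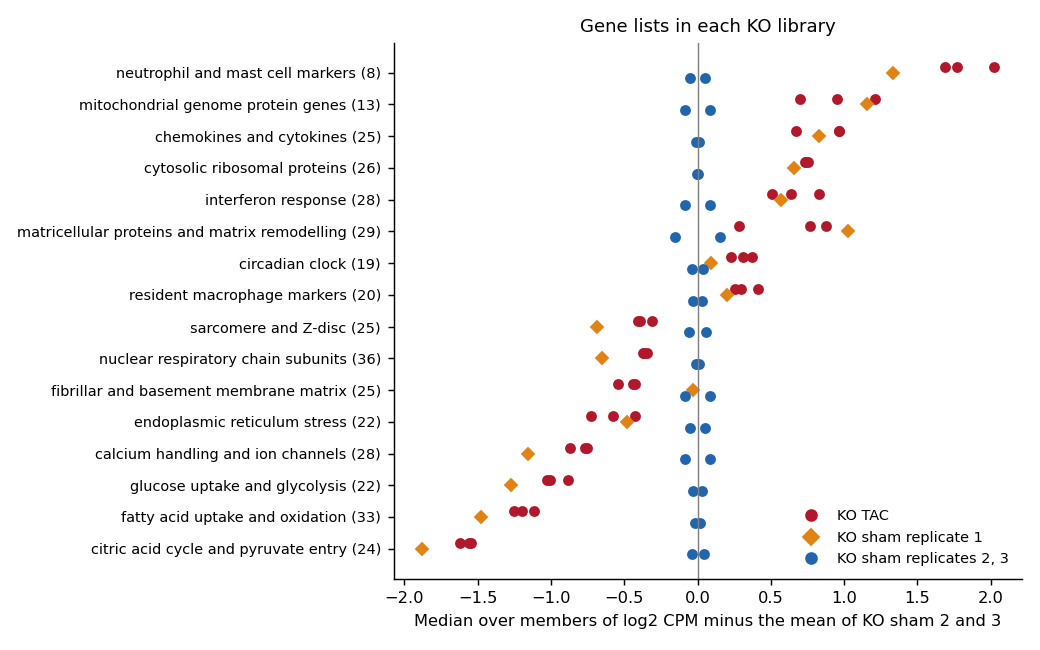
Median over the members of 16 gene lists of log2 CPM minus the mean of KO sham replicates 2 and 3, with one point per library and the number of members tested in brackets. KO sham replicate 1 (diamonds) is within the range of the TAC hearts or beyond it in 11 of the 16 lists, and at −0.03 in the fibrillar and basement membrane matrix list.

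Among vascular genes, 14 of 25 rose and 7 fell, with medians of 0.44 without replicate 1 and 0.21 with all 6 libraries, where it was just below 0 without KO sham replicate 2. Egfl7, a matrix factor that endothelium secretes, had 258, 280.4 and 297 CPM in KO TAC hearts, against 298, 64.3 and 65.5 CPM in KO sham hearts, and Sox17, an arterial transcription factor, 45.6, 42.4 and 41.2 in KO TAC, against 31.8, 11.9 and 16.4 in KO sham. Vegfa, the main angiogenic growth factor, had 614, 799.7 and 694 CPM in KO TAC hearts, against 567, 488 and 557 CPM in KO sham hearts and was above all sham hearts. Apln and its receptor gene Aplnr, a pair that acts in angiogenesis and contractility, were below all sham hearts, and Aplnr had 28.8, 30.4 and 34.2 CPM in KO TAC hearts, against 48.8, 86.3 and 60.5 CPM in KO sham hearts. The pan-endothelial genes Pecam1 and Cdh5 also fell, with log2 fold changes of −0.37 ± 0.10 and −0.31 ± 0.09 without replicate 1 (edgeR adjusted p = 0.00785 and 0.0154).

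Of 14 fibroblast markers, 6 rose and 2 fell, with medians of 0.14 without replicate 1 (−0.12 on library totals without TMM scaling) and −0.17 with all 6 libraries. Of 15 smooth muscle and pericyte markers, 0 rose and 6 fell. Dpt, dermatopontin of quiescent fibroblasts, had 177, 144 and 143 CPM in KO TAC hearts, against 127, 74.9 and 88.4 CPM in KO sham hearts, and Pdgfra, which marks most cardiac fibroblasts, 33.5, 33.1 and 29.5 in KO TAC, against 34.0, 39.1 and 37.4 in KO sham. Dpt was above all sham hearts, and Pdgfra was not called (−0.24 ± 0.10, edgeR adjusted p = 0.0528). Rgs5, of pericytes, had 402, 407 and 362 CPM in KO TAC hearts, against 381, 690.3 and 771 CPM in KO sham hearts, with replicate 1 within the TAC range.

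Markers of tissue next to the ventricle also differed between these libraries, and their part in the results was not tested. The summed level of 11 atrial markers was 2644, 856 and 1756 CPM in KO TAC hearts, against 3234, 655 and 475 CPM in KO sham hearts, highest in replicate 1. Of the markers 3 rose, Clcn1 and Nr2f2 among them, and 2 fell, Kcnk3 and Dsc2. Nppa, Myl4 and Sln were not called (edgeR adjusted p = 0.0579, 0.098 and 0.084 without replicate 1). The median of the list was 1.8 without replicate 1 and 0.35 with all 6 libraries, where its sign changed in 3 of 18 alternatives. Myl7, the atrial light chain, had 632, 133 and 392 CPM in KO TAC hearts, against 800.5, 85.6 and 64.0 CPM in KO sham hearts, and Bmp10, of the right atrium, 34.9, 3.75 and 34.3 in KO TAC, against 0.0668, 6.34 and 0 in KO sham, with replicate 1 near 0 in Bmp10. The 10 mesothelial markers summed to 45.3, 54.5 and 60.3 CPM in KO TAC hearts, against 116, 12.6 and 23.7 CPM in KO sham hearts, and 8 rose and 0 fell. Their median was 2.46 without replicate 1 but −0.34 with all 6 libraries, where its sign changed in 3 of 18 alternatives. Msln, mesothelin, had 2.70, 5.36 and 4.88 CPM in KO TAC hearts, against 16.4, 0 and 1.017 CPM in KO sham hearts, and replicate 1 was the highest library.

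The 11 adipocyte markers summed to 1283, 1337 and 1126 CPM in KO TAC hearts, against 1337, 632 and 743 CPM in KO sham hearts, most of it from Fabp4, which endothelium shares, and 7 of 9 tested rose. Adipoq, which defines adipocytes, had 2.90, 2.91 and 3.21 CPM in KO TAC hearts, against 2.54, 0.975 and 0.832 CPM in KO sham hearts. The 10 erythroid markers summed to 212, 269.6 and 126 CPM in KO TAC hearts, against 244, 273 and 110.4 CPM in KO sham hearts, with 1 of 8 tested higher and 1 lower. The skeletal myosin genes Myh1, Myh2 and Myh4 were at or near 0 in all libraries, as was the lung gene Sftpc. Of the T and NK cell list, 4 of 16 members were tested and 2 rose, and of the B cell list 10 of 16 were tested, 4 rising and 2 falling.

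The TAC effect in KO hearts was then set against that in WT hearts. Without KO sham replicate 1, the difference between the effects was called by edgeR for 1961 of 16196 genes (12.1%), more positive in KO for 754 (4.66%) and more negative for 1207 (7.45%). With all 12 libraries it was called for 0 of 15804 genes (0%), with 1452 at an unadjusted p under 0.05, and DESeq2 called 95, 53 higher and 42 lower. Leaving out WT TAC replicate 1 alone gave 4 calls. The KO and WT effects compare different libraries, but the WT effect was fitted together with the KO libraries. Its filter, scaling and estimate of spread thus depended on the KO libraries too. Of the 4431 genes that rose in KO hearts, 3616 (81.6%) had a positive log2 fold change in WT, with medians of 0.93 in KO and 0.31 in WT. Of the 4633 that fell, 3659 (79.0%) were negative in WT, with medians of −0.85 in KO and −0.24 in WT. In WT, 399 of the 4431 and 353 of the 4633 were called in the same direction by edgeR. The shares of equal signs and of WT calls over all genes were not computed. These counts therefore cannot be read as high or low, and the part of single WT libraries in them was not tested.

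**Figure D5:**
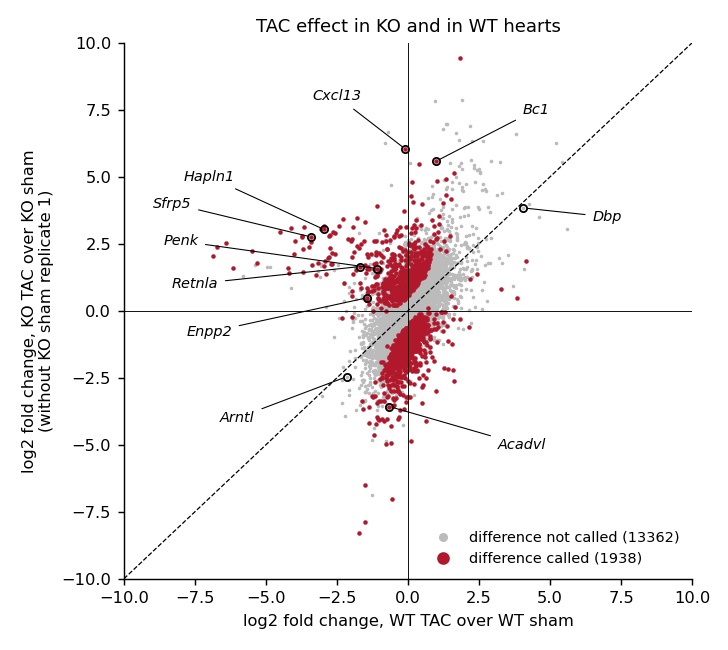
Log2 fold change of TAC over sham in KO hearts without KO sham replicate 1 (vertical axis) against that in WT hearts (horizontal axis), with one point per gene. The difference between genotypes was called for 1938 of the genes plotted (red) and not for 13362 (grey), and the dashed line marks equal effects.

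Among the genes whose direction was opposite in the genotypes were Retnla, Penk, Enpp2 and Hacd1. Others were Gm12183 and, of the genes above, Wif1 and Alox8. Wif1 changed by −1.93 ± 0.42 in WT (edgeR adjusted p = 0.0245 without KO sham replicate 1 and 0.122 with all 12 libraries). The difference for Wif1 was 3.28 ± 0.60 without KO sham replicate 1 (edgeR adjusted p = 0.00782) and 3.24 ± 0.59 with all 12 libraries (adjusted p = 0.137). Retnla (ENSMUSG00000061100), a secreted protein of alternatively activated macrophages and fat, had 6.41, 6.51 and 5.201 CPM in KO TAC hearts, against 3.41, 2.11 and 1.76 CPM in KO sham hearts. In CPM of the library total, with no TMM scaling, it had 2.04, 1.21 and 0.913 in WT TAC hearts, against 4.35, 3.66 and 4.01 in WT sham hearts. Retnla thus rose in the KO libraries fitted alone (1.65 ± 0.21 without replicate 1, edgeR adjusted p = 0.000104). It fell in WT in the separate fit of 11 libraries (−1.71 ± 0.24, edgeR adjusted p = 0.00359). Neither effect was called with KO sham replicate 1 (edgeR adjusted p = 0.228 in KO with 6 libraries and 0.0585 in WT with 12 libraries). The difference was 3.35 ± 0.35 without KO sham replicate 1 (adjusted p = 0.000738) and 3.05 ± 0.40 with all 12 libraries (adjusted p = 0.0545).

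Penk, the opioid precursor proenkephalin, had 6.75, 3.91 and 5.52 CPM in KO TAC hearts, against 2.54, 1.42 and 2.27 CPM in KO sham hearts, and in CPM of the library total 4.08, 3.68 and 3.60 in WT TAC hearts, against 6.40, 7.19 and 8.26 in WT sham hearts. Enpp2, autotaxin, had 14.5, 9.81 and 12.3 CPM in KO TAC hearts, against 7.75, 8.98 and 8.69 CPM in KO sham hearts, and 5.34, 4.84 and 4.67 in WT TAC hearts, against 11.5, 14.5 and 10.2 in WT sham hearts, on that same total scale. Both were above all sham hearts in the KO and below all sham hearts in the WT, but on library totals without TMM scaling Enpp2 of KO TAC replicate 3 was below 2 of the sham hearts. Their differences were 2.66 ± 0.35 and 1.91 ± 0.26 without KO sham replicate 1 (edgeR adjusted p = 0.00249 and 0.00255) and 2.49 ± 0.36 and 1.97 ± 0.25 with all 12 libraries (adjusted p = 0.0633 and 0.0545).

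Hacd1, a dehydratase of very long fatty acid synthesis in muscle, had 17.7, 16.5 and 16.8 CPM in KO TAC hearts, against 15.8, 51.2 and 50.2 CPM in KO sham hearts, and on the total scale 52.3, 44.2 and 40.4 in WT TAC hearts, against 31.6, 30.1 and 30.4 in WT sham hearts. Its difference was −1.98 ± 0.15 without KO sham replicate 1 (edgeR adjusted p = 0.000134) and −1.61 ± 0.45 with all 12 libraries (adjusted p = 0.406). Acadvl had 106, 339 and 278 CPM of the total in WT TAC hearts, against 357, 379 and 327 in WT sham hearts, and WT TAC replicate 1 was the low one. Its difference was −2.93 ± 0.51 without KO sham replicate 1 (adjusted p = 0.00697) and −2.40 ± 0.97 with all 12 libraries (adjusted p = 0.523).

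Cxcl13, Hapln1 and Sfrp5, which separated all KO libraries, were not higher after TAC in WT hearts. Cxcl13 had 3, 3 and 1 raw counts in WT TAC hearts, against 2, 4 and 2 in WT sham hearts, and Hapln1 had 0, 2 and 1 in WT TAC, against 10, 15 and 3 in WT sham, too few for a fold. Sfrp5 had 0.420, 0.330 and 0.376 CPM of the library total in WT TAC hearts, against 1.00, 7.41 and 2.61 in WT sham hearts. It fell there, with a log2 fold change of −3.42 ± 0.78 (edgeR adjusted p = 0.0311 without KO sham replicate 1 and 0.117 with all 12 libraries), with wide spread among the sham hearts. The difference for Sfrp5 was 6.17 ± 1.08 without KO sham replicate 1 (adjusted p = 0.00781) and 6.04 ± 0.99 with all 12 libraries (adjusted p = 0.121).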

How the data were processed

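The deposited table holds raw read counts per gene, whole numbers with no normalization, in 12 heart libraries. Per the submitters' processing notes the tools included HISAT2. Neither the labels nor the file state the counting program, genome build, annotation or use of strand. Of 55357 identifiers, 52081 were matched to a symbol in GENCODE M21, and the build the authors used may differ.

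Counts were scaled by TMM, genes with low counts were removed with filterByExpr, and groups were tested with the robust quasi-likelihood test of edgeR 4.0.16 in R 4.3.3. P-values were adjusted by the Benjamini-Hochberg method over all genes tested, with calls at 0.05. The KO TAC effect was fitted in 6 libraries and again without KO sham replicate 1. The WT effect and the difference between genotypes were fitted in 12 and in 11 libraries. Errors beside log2 fold changes are standard errors. Alternatives included DESeq2 1.42.0, limma-voom (limma 3.58.1), other scalings and filters and leaving out each library. The steps were tested on simulated data. Total counts of 14150109 to 22602225 in the KO libraries limit the precision for genes of a few counts.

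The members and gene lists were chosen with earlier results of these data known. Named genes were Cd163 and Il10, the 12 genes per direction of largest change in 6 libraries among called genes with no overlap, the 8 per direction of largest change without KO sham replicate 1 at a group mean of 5 CPM or more, up to 4 genes per list by smallest p, and 8 genes for the difference between genotypes. The first of these sets needed a mean of 1 CPM in a group, and provisional symbols were left out. Other list members were named after their values were seen. Some genes that the rule or lists name are not reported here. Motif matches and promoters come from RefSeq tables of GRCm38.p6.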

Additional observations from a re-analysis of the deposited data

Results flagged for a closer look

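The TAC effect differed between KO and WT hearts, by the interaction term of edgeR, for 8 genes that had the smallest p in the test with or without KO sham replicate 1. All 8 were called without that library and none with all 12 libraries. Differences are log2 values, KO minus WT, without KO sham replicate 1.

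Secreted proteins and 1 transcript of provisional name were more positive in KO. The difference was 3.35 ± 0.35 for Retnla (adjusted p = 0.000738, and 0.0545 with 12 libraries), 2.66 ± 0.35 for Penk (adjusted p = 0.00249, and 0.0633), 1.91 ± 0.26 for Enpp2 (adjusted p = 0.00255, and 0.0545) and 1.36 ± 0.19 for Gm12183 (adjusted p = 0.00313, and 0.0633), all by edgeR. Gm12183 had 15.8, 17.5 and 13.4 CPM in KO TAC hearts, against 11.97, 11.4 and 10.6 CPM in KO sham hearts, and 11.8, 9.62 and 9.62 CPM of the library total in WT TAC hearts, against 15.5, 18.2 and 16.6 in WT sham hearts. With all 12 libraries the sizes were close, at 3.05, 2.49, 1.97 and 1.32 in that order.

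The difference for Bc1, a small noncoding RNA, was 4.60 ± 0.37 (edgeR adjusted p = 0.000134) and 0.29 ± 1.49 with 12 libraries (adjusted p = 0.958), and KO sham replicate 1 was the highest KO library. In WT hearts Bc1 had 6.30, 4.40 and 4.73 CPM of the library total after TAC, against 2.10, 2.19 and 2.71 after sham.

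For 3 genes the effect was more negative in KO. The difference was −1.98 ± 0.15 for Hacd1 (edgeR adjusted p = 0.000134), −1.84 ± 0.19 for Nudt19, a peroxisomal coenzyme A hydrolase (adjusted p = 0.000738), and −2.37 ± 0.24 for Fabp3-ps1 (adjusted p = 0.000738). With 12 libraries the adjusted p was 0.406, 0.410 and 0.448 in that order. Nudt19 had 10.4, 9.12 and 9.18 CPM in KO TAC hearts, against 10.96, 31.3 and 31.9 CPM in KO sham hearts, and 43.0, 45.9 and 40.6 CPM of the library total in WT TAC hearts, against 36.4, 33.2 and 37.1 in WT sham hearts. Fabp3-ps1 is a pseudogene of the heart fatty acid binding protein gene Fabp3 and can share its reads, so its level is uncertain, and its values were 7.35, 5.13 and 6.42 CPM in KO TAC hearts, against 5.15, 23.7 and 27.0 CPM in KO sham hearts.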

How the results depend on the processing

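The count of genes called between KO TAC and KO sham hearts turned on KO sham replicate 1. With all 6 libraries it was 0 by edgeR, 192 by DESeq2, 9339 by limma-voom with sample weights, 7 with no filter on low counts, and 0 to 9064 with 1 library left out, where 9064 came without KO sham replicate 1 and the other 5 gave 0. Without that library the 9064 calls became 1557 when a change of over 2-fold was tested, and 6701 to 9074 with a further library left out. The difference between genotypes was called for 0 genes with 12 libraries, for 95 by DESeq2, and for 0 to 1961 with 1 library left out, of which 1961 came without KO sham replicate 1 and 4 without WT TAC replicate 1. The share of called genes with KO sham replicate 1 on the TAC side was 69.6% when it had to reach the TAC range and 92.3% when it had to be nearer to the TAC mean.

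The mesothelial genes Gpm6a, Krt19 and Muc16 were negative with all 6 libraries and reversed to 1.04, 2.61 and 2.79 without KO sham replicate 1 and to 0.91, 2.27 and 2.52 with limma-voom, and with 1 library left out they ranged from −0.72 to 1.04, −1.55 to 2.61 and −1.40 to 2.79. Some genes that were not called also changed sign. Without KO sham replicate 1, library totals without TMM scaling gave −0.20 for Mrc1, −0.035 for Tgfb1, −0.13 for Tnnt2 and −0.24 for Ttn, and no filter on low counts gave −0.0050 for Mrc1 and −0.051 for Ttn. With a further library left out the range was −0.62 to 0.57 for Ccr2, −0.56 to 0.10 for Malat1, −0.20 to 0.14 for Nppb, −0.025 to 0.24 for Tnnt2 and −0.14 to 0.15 for Ttn. Cd163 was 0.031 with a replicate block and 6 libraries. The causes were not tested. Groups share replicate numbers 1 and 3, and deviations of same-numbered libraries from their group mean correlated at −0.04 for each pair. KO sham replicate 1 shifts the sham mean behind these deviations, so the correlations cannot decide whether same-numbered libraries share more than a number. A replicate block gave 5 calls with 6 libraries, 4 higher and 1 lower, and 0 for the difference between genotypes. Genes of a few counts in a library are limited by depth.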
